A study of Mus musculus with 6 samples.

Results

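The genes studied here shorten or help to shorten the poly(A) tails of maternal mRNA, and they were followed in fully grown mouse oocytes: Parn, Pan2, Pan3, Cnot1, Cnot6, Cnot6l, Cnot7, Cnot8, Btg4 and Zfp36l2. They were chosen by symbol, with earlier results of these data known, and all 10 were found among the 23284 symbols of the count tables. The oocytes were at the germinal vesicle (GV) stage, arrested in meiotic prophase, and carried either the genotype labelled Lsd1 KO or that labelled Control, on a mixed C57BL/6-129 background. There were 3 samples of each. Lsd1, also called Kdm1a, encodes a histone lysine demethylase. All females were 4 to 6 weeks old and had been primed with PMSG (a gonadotrophin that makes follicles grow; 5 IU) 48 hours earlier, so both genotypes shared this priming. A sample was a pool of 100 oocytes, and how many females gave them is not stated, so p-values measure the spread between these pools. Neither the exons deleted nor the driver of the deletion was given in the sources used here.

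A growing oocyte stores mRNA that it cannot replace, because transcription stops before meiosis resumes. Tail shortening by deadenylases is the step that silences many of these messages and then commits them to decay as the oocyte matures and the embryonic genome takes over. The PAN2-PAN3 complex trims long tails, the CCR4-NOT complex removes most of the rest, and PARN is a separate nuclease that is known from deadenylation in frog oocytes and from the trimming of small non-coding RNA. BTG4 brings CCR4-NOT to maternal messages in the maturing mouse oocyte, and ZFP36L2 brings it to messages with AU-rich elements. Some of the decay factors are themselves stored as silent messages, and the cytoplasmic polyadenylation element (CPE) in the 3′ UTR is the best known signal for their later translation.

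The ends of the members' own 3′ UTRs were therefore read first. In the last 300 bases of the longest annotated 3′ UTR (GENCODE release M1, NCBIM37, the assembly of mm9), a CPE spelled TTTTAT or TTTTAAT was found on the transcript strand in 5 of the 10 genes, against 34.7% of 15281 genes with a window of that length. These were Pan2, Pan3, Cnot1, Cnot8 and Btg4. The copy nearest the transcript end is printed for each within 30 bases, because these are the letters that the best known translational signal of stored mRNA would use. Capitals mark the CPE.
Pan2 (chr10:127758374-127758403, + strand): tttataaaataaaagtatTTTTATctcatt
Pan3 (chr5:148360036-148360065, + strand): atagcagtattTTTTAATaaagaattgcag
Cnot1 (chr8:98243404-98243433, - strand): aagatgtattgaTTTTATatatgtgagtac
Cnot8 (chr11:57932048-57932077, + strand): attatttatgtTTTTAATtttgtaaaataa
Btg4 (chr9:50927902-50927931, + strand): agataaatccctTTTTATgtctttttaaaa
The Pan3 copy overlaps a poly(A) signal (AATAAA), which starts 27 bases before the transcript end. Pan2 held 3 copies of TTTTAT in its window, and the printed one starts 12 bases before the end, downstream of the poly(A) signal at 23 bases. The others start at 66 and 31 bases, upstream of that signal, and the printed stretch cuts the copy at 31. Btg4 held 2 copies of TTTTAT and 1 of TTTTAAT, and its AATAAA lies 291 bases before the annotated end. The annotated ends may not be those used in oocytes.

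Matches to the sites of other regulators were fewer. The Pumilio motif TGTANATA was found in 2 windows, those of Cnot7 and Cnot8, against 9.58% of genes. The AU-rich element TATTTAT was found in 2, those of Cnot6 and Cnot8, against 9.86%. The sites of Cnot7 and Cnot6 are printed, with the motif in capitals, because their windows hold such a motif and no CPE.
Cnot7, Pumilio (chr8:41577907-41577936, - strand): tttaaagctttTGTAAATAaaggcttcaaa
Cnot6, AU-rich (chr11:49485067-49485096, - strand): agctagtattaTATTTATatacagggtctc
The Cnot7 match runs into its poly(A) signal. The signal AATAAA was found in 9 of the 10 windows, all but that of Cnot1, against 68.0% of genes. Of the genes with no significant change in Lsd1 KO, Pan2, Cnot1, Cnot8 and Btg4 have a CPE match in the window. Cnot6, Cnot6l, Cnot7 and Zfp36l2, also without such a change, have none there. Of the 2 genes whose level changed in Lsd1 KO, Pan3 has a CPE match in its window and Parn has none. Over whole 3′ UTRs, which run from 411 to 6847 bases in the 9 other genes, all 9 held a CPE form, and Parn, with 886 bases, held none of the 4 regulatory motifs. A longer UTR holds more matches by its length alone, and no share over all genes was computed for whole UTRs. A match describes these letters only, and no binding was measured.

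**Figure D1:**
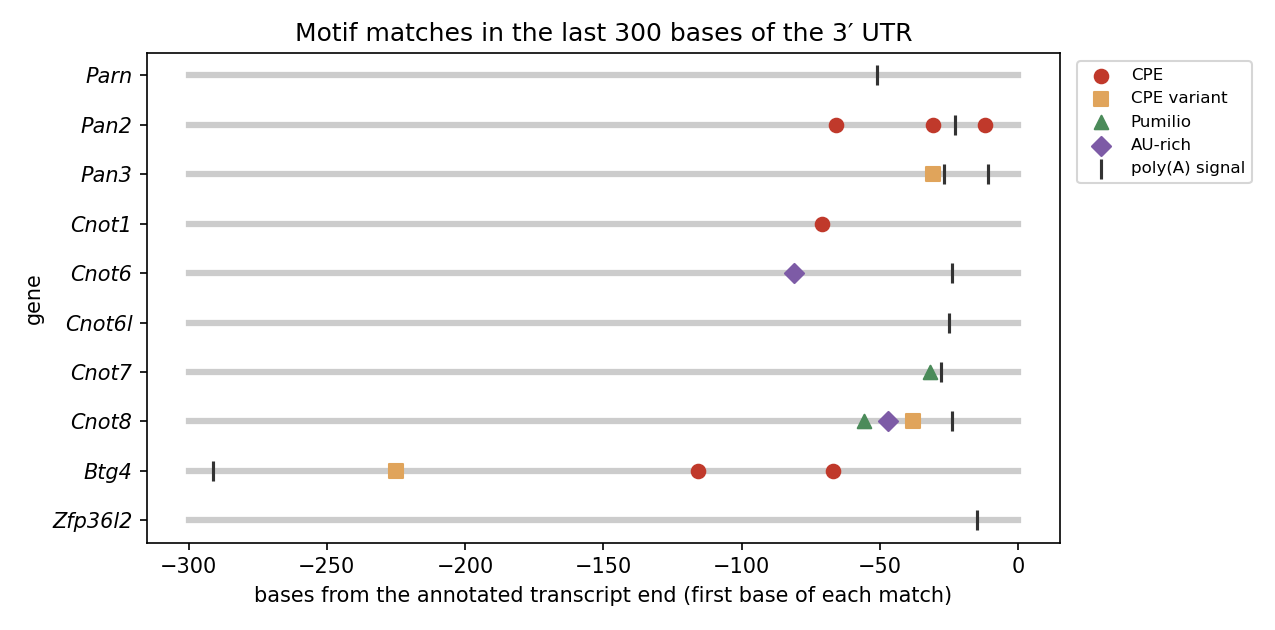
Position of motif matches in the last 300 bases of each gene's longest annotated 3′ UTR; the horizontal axis gives bases before the annotated transcript end, and each symbol is 1 match. Pan2, Pan3, Cnot1, Cnot8 and Btg4 hold a CPE or its variant, and Parn shows only a poly(A) signal.

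Library totals lay between 10735422 and 13035045 counts in genes, and each member had between 224 and 11868 counts in every library, so all 10 passed the filter on low counts. Levels below are CPM, the counts of a gene relative to its library's total after TMM scaling. Fewer cells, or an equal loss of all mRNA in each oocyte, would not show in CPM. A CPM can also move because the rest of the library changed. Kdm1a was at 3.27 ± 0.487 CPM in the Lsd1 KO libraries, beside 63.6 ± 16.6 CPM in Control (SD, n = 3 each). Between genotypes, 11.0% of 12935 genes tested were higher and 10.3% lower, together 21.3%, at an adjusted p under 0.05 (edgeR's quasi-likelihood test with Benjamini-Hochberg adjustment). Oocyte markers were abundant in every library, at a summed 33471 to 37872 CPM in Lsd1 KO libraries against 23148 to 27068 CPM in Control over 12 genes. Gdf9, an oocyte growth factor, made most of that gap (15558 against 6057 CPM), and the other 11 markers overlapped at 18989 to 21693 and 16132 to 21499 CPM. Markers of 13 immune genes summed to 30.1 to 188 CPM in Lsd1 KO libraries against 21.2 to 70.1 CPM in Control, with Lsd1 KO replicate 2 and Control replicate 2 lowest. The 12 granulosa markers summed to 373 to 469 CPM and 129 to 152 CPM; without Cyp19a1 (324 against 36.8 CPM) the other 11 summed to 64.2 to 134 CPM and 98.0 to 102 CPM. Nr5a2, of the same list, fell from 69.4 ± 3.10 CPM in Control to 28.7 ± 3.99 in Lsd1 KO (log2 -1.28 ± 0.18), and was named after its values were seen. Without both genes the other 10 summed to 37.2 to 101 CPM in Lsd1 KO and 25.0 to 34.6 CPM in Control, higher in every Lsd1 KO library. The 9 theca and stroma markers summed to 19.6 to 51.0 CPM in Lsd1 KO and at most 14.3 CPM in Control. Of 6 red blood cell markers, 5 were at 0 counts in every library. What part these other cells had in the results below was not tested beyond the values given.

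Of the 10 genes, 1 rose in Lsd1 KO, 1 fell and 8 did not pass the test. Parn, the poly(A)-specific ribonuclease, rose 2.57-fold, and Pan3, the subunit that anchors the PAN2 nuclease to its RNA, fell 1.86-fold. With 2 of 10 called where 21.3% of all genes were called, the group as a whole stood close to the background. Its median log2 fold change was -0.06, and its median absolute log2 fold change was 0.30, where all genes tested had -0.01 and 0.44. Groups did not overlap for Parn, Pan3 and Cnot7, 3 of 10 genes, against 38.7% of all genes. Log2 fold changes compare Lsd1 KO with Control, so that a positive value is higher in Lsd1 KO, and stand with their SE.

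**Figure D2:**
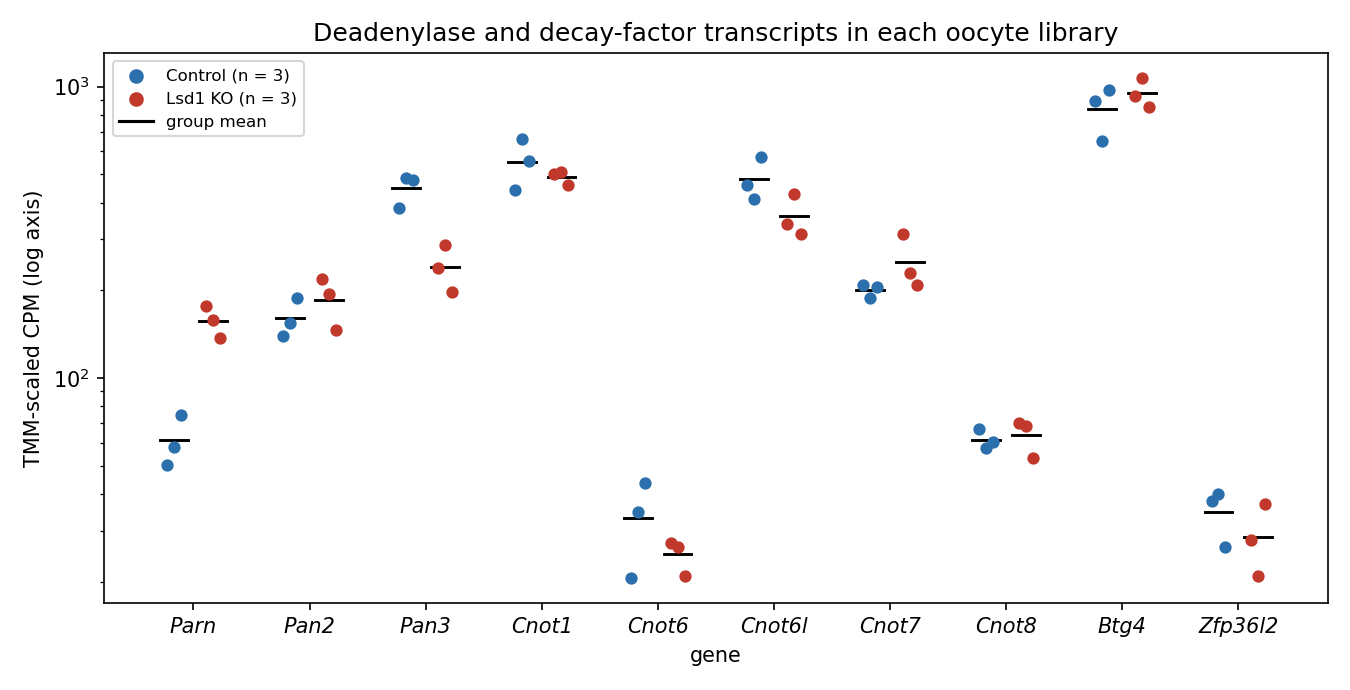
TMM-scaled CPM on a log axis for each gene, with 1 point per library and the bar at the mean of 3 libraries. The 3 Lsd1 KO points of Parn lie above all Control points and those of Pan3 below, whereas most other genes overlap.

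Parn is a DEDD-family exonuclease on chromosome 16 (mm9, 13538057 to 13668263, minus strand, protein-coding, 24 merged exons). Its level was 177, 158 and 137 CPM in Lsd1 KO replicates 1 to 3, and 50.5, 58.2 and 74.8 CPM in Control replicates 1 to 3. Every Lsd1 KO library lay well above every Control library. The log2 fold change was 1.36 ± 0.20 (95% interval 0.94 to 1.79, edgeR adjusted p = 7.86e-04), and 10.3% of genes tested had a larger absolute change. In the pair of libraries with the lowest immune marker sums, Lsd1 KO replicate 2 and Control replicate 2, Parn was at 158 and 58.2 CPM. With the sum of the log2 CPM of the 13 immune markers as a covariate, the log2 fold change was 1.34 in the same test (adjusted p = 0.00174). No covariate was fitted for the granulosa, theca and stroma markers. Per kb of exon, Parn went from 21.1 ± 4.28 to 54.2 ± 6.98 CPM. In Control it was eighth of the 10 genes in mean level, overlapping Cnot8, and in Lsd1 KO the third, overlapping Cnot1 and Pan3.

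Of the transcripts for the PAN2-PAN3 complex, that of Pan3 passed the test and that of Pan2 did not. Pan3, a pseudokinase that recruits the complex to poly(A)-binding protein, was at 239, 287 and 198 CPM in the Lsd1 KO libraries and 384, 487 and 477 CPM in the Controls. The highest Lsd1 KO library lay below the lowest Control library. Its log2 fold change was -0.90 ± 0.19 (95% interval -1.31 to -0.48, edgeR adjusted p = 0.00649), and 22.2% of genes tested had a larger absolute change. In Lsd1 KO replicate 2 and Control replicate 2, which had the lowest immune sums, Pan3 was at 287 and 487 CPM, and with the immune covariate its log2 fold change was -0.80 (adjusted p = 0.0170). Pan3 occupies positions 148242156 to 148360077 of chromosome 5 in mm9, plus strand.

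Pan2, the catalytic subunit, was at 218, 194 and 146 CPM in the Lsd1 KO libraries and 139, 155 and 189 CPM in the Controls. These ranges overlapped, and the log2 fold change of 0.21 ± 0.20 (95% interval -0.22 to 0.64) did not pass (edgeR adjusted p = 0.482). The log2 ratio of Pan2 to Pan3, per kb and within each library, was -0.05, -0.49 and -0.36 among Lsd1 KO libraries and -1.39, -1.57 and -1.25 in Control. In Control oocytes the Pan2 transcript was thus at 0.378 of the Pan3 level and in Lsd1 KO at 0.812. The difference of 1.10 did not overlap between genotypes, and its exact two-sided permutation p of 0.1 is the smallest that 3 against 3 libraries allow (adjusted over 3 ratios, 0.300). Being a ratio within a library, it does not depend on how libraries were scaled.

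**Figure D3:**
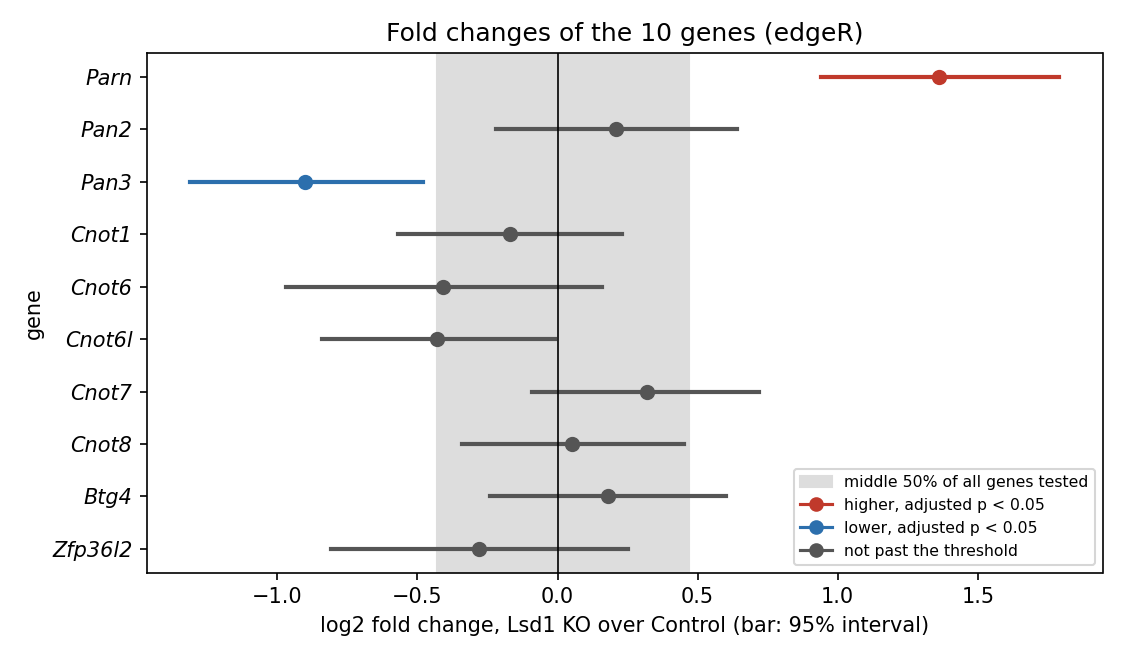
Log2 fold change of each gene with its 95% interval; the grey band holds the middle 50% of all 12935 genes tested. The intervals of Parn (0.94 to 1.79) and Pan3 (-1.31 to -0.48) lie outside the band (-0.43 to 0.47), on opposite sides.

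The catalytic arms of CCR4-NOT did not pass the test. This complex holds a CCR4-type nuclease (CNOT6 or CNOT6L) and a CAF1-type nuclease (CNOT7 or CNOT8) on the scaffold CNOT1. Cnot6l, the CCR4-type form known to act in mouse egg maternal decay, was at 337, 427 and 313 CPM in the Lsd1 KO libraries and 460, 413 and 573 CPM in the Controls. Lsd1 KO replicate 2 reached into the Control range. The log2 fold change was -0.43 ± 0.19 (95% interval -0.84 to -0.01). Its unadjusted p was 0.0461 and its adjusted p by edgeR 0.135. After correcting for exon length and GC content the value was -0.15 (adjusted p = 0.559), and the exons of Cnot6l, at 10313 bases and 38.6% GC, are the longest and least GC-rich of the 10 genes.

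Cnot6, its paralog, was measured at 27.3, 26.4 and 21.0 CPM in the Lsd1 KO libraries and 20.7, 34.8 and 43.6 CPM in the Controls. Control replicate 1 was the lowest of the 6 libraries, and the groups overlapped. The log2 fold change was -0.41 ± 0.26 (edgeR adjusted p = 0.290). It was -0.68 without Control replicate 1 (adjusted p = 0.0733) and -0.17 without Control replicate 3 (0.677). After the length and GC correction it was -0.19 (adjusted p = 0.638). Per kb of exon, Cnot6l exceeded Cnot6 by 9.65-fold in Control and 9.15-fold in Lsd1 KO. The log2 ratio differed by -0.08 between genotypes (exact permutation p = 0.900), and Control replicate 1 held the highest ratio of the 6 libraries, 3.82.

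Cnot7, the CAF1-type form needed for male fertility, was at 311, 229 and 209 CPM in the Lsd1 KO libraries and 208, 189 and 205 CPM in the Controls. The groups did not overlap, but the lowest Lsd1 KO library (209) and the highest Control library (208) nearly met. The log2 fold change was 0.32 ± 0.19 (95% interval -0.09 to 0.72, edgeR adjusted p = 0.248), 0.16 without Lsd1 KO replicate 1 and 0.52 after the length and GC correction (adjusted p = 0.0580). Cnot8, its paralog, was at 69.9, 68.5 and 53.3 CPM against 66.8, 57.5 and 60.4 CPM. Its ranges overlapped fully, with a log2 fold change of 0.05 ± 0.18 (95% interval -0.34 to 0.45). Per kb, Cnot7 exceeded Cnot8 by 1.47-fold in Control and 1.75-fold in Lsd1 KO, a log2 difference of 0.25 (exact permutation p = 0.200).

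Cnot1, the scaffold, was at 503, 511 and 458 CPM in the Lsd1 KO libraries and 442, 661 and 555 CPM in the Controls. The Lsd1 KO values fell inside the Control range, and the log2 fold change was -0.17 ± 0.19 (95% interval -0.57 to 0.23, edgeR adjusted p = 0.545). Other genes listed for the complex gave no call either. Of 6 others, namely Cnot2, Cnot3, Cnot4, Cnot10, Rqcd1 (the older symbol of Cnot9) and D1Bwg0212e (that of Cnot11), none passed. Over all genes tested 21.3% passed, so few calls would be looked for among 6 genes. The log2 fold changes of these 6 ran from -0.15 to 0.19, with a median of -0.04. None of these 6 was past the threshold in any of the 17 alternative fits.

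Transcripts of the proteins that bring the complex to its targets were read next. Btg4, the oocyte adaptor, had the highest level of the 10 genes per kb of exon, and stood at 928, 1070 and 849 CPM in the Lsd1 KO libraries and 895, 648 and 970 CPM in the Controls. The groups overlapped, and the log2 fold change of 0.18 ± 0.19 (95% interval -0.24 to 0.60) did not pass (edgeR adjusted p = 0.547). Zfp36l2, the zinc-finger protein that binds AU-rich elements, was at 27.8, 21.0 and 37.0 CPM in the Lsd1 KO libraries and 37.8, 40.1 and 26.4 CPM in the Controls. It also overlapped, with a log2 fold change of -0.28 ± 0.25 (95% interval -0.81 to 0.25, edgeR adjusted p = 0.445). The intervals of the 8 genes that did not pass reach from -0.97 (Cnot6) to 0.72 (Cnot7). A change of 2-fold lies outside each of them, and how small a change is left within an interval differs by gene.

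Levels can be set in order only per kb of exon. In Control, Btg4 stood first at 564 ± 113 CPM per kb, rank 59 of 12503 genes. Pan3 (95.7 ± 12.1) came next and did not overlap Cnot1 (65.8 ± 13.0). From Cnot1 through Cnot6l (46.8 ± 7.99) and Pan2 (36.2 ± 5.81) to Cnot7 (34.4 ± 1.73), each overlapped the next, and Cnot7 did not overlap Cnot8. Cnot8 (23.4 ± 1.79) and Parn (21.1 ± 4.28) overlapped each other, and Zfp36l2 (9.85 ± 2.08) and Cnot6 (5.00 ± 1.75) closed the order without overlap. In Lsd1 KO the order was Btg4 (639 ± 75.5), Cnot1 (58.4 ± 3.42), Parn (54.2 ± 6.98), Pan3 (51.4 ± 9.50), Cnot7 (42.9 ± 9.35), Pan2 (41.8 ± 8.27), Cnot6l (34.8 ± 5.85), Cnot8 (24.2 ± 3.48), Zfp36l2 (8.10 ± 2.27) and Cnot6 (3.77 ± 0.518). In that order each gene from Cnot1 to Cnot6l overlapped its neighbour, and Btg4, Cnot8, Zfp36l2 and Cnot6 stood apart. The exon lengths come from GENCODE and may differ from the transcripts that oocytes use.

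The 6 catalytic deadenylases (Parn, Pan2, Cnot6, Cnot6l, Cnot7 and Cnot8) were also taken as a mixture. Their summed level per kb was 227, 209 and 170 CPM in the Lsd1 KO libraries and 157, 155 and 189 CPM in the Controls, with overlap. Parn made up 26.9%, 26.1% and 27.8% of that sum in Lsd1 KO and 11.1%, 13.0% and 13.7% in Control. Its share varied by 0.835 percentage points (SD) among the Lsd1 KO libraries. Cnot6l made up 14.4%, 19.8% and 17.9% of it in Lsd1 KO libraries but 28.4%, 25.9% and 29.5% in Control, without overlap. Pan2 was at a mean of 20.6% and 21.7%, and Cnot7 at 21.2% and 20.8%. In Control oocytes Cnot6l was thus the largest catalytic component, and in Lsd1 KO Parn was. The shares rest on levels without the length and GC correction, under which the log2 fold change of Cnot6l went from -0.43 to -0.15. They are not independent, since a rise of 1 lowers the rest, and transcript shares say nothing of enzyme amounts.

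**Figure D4:**
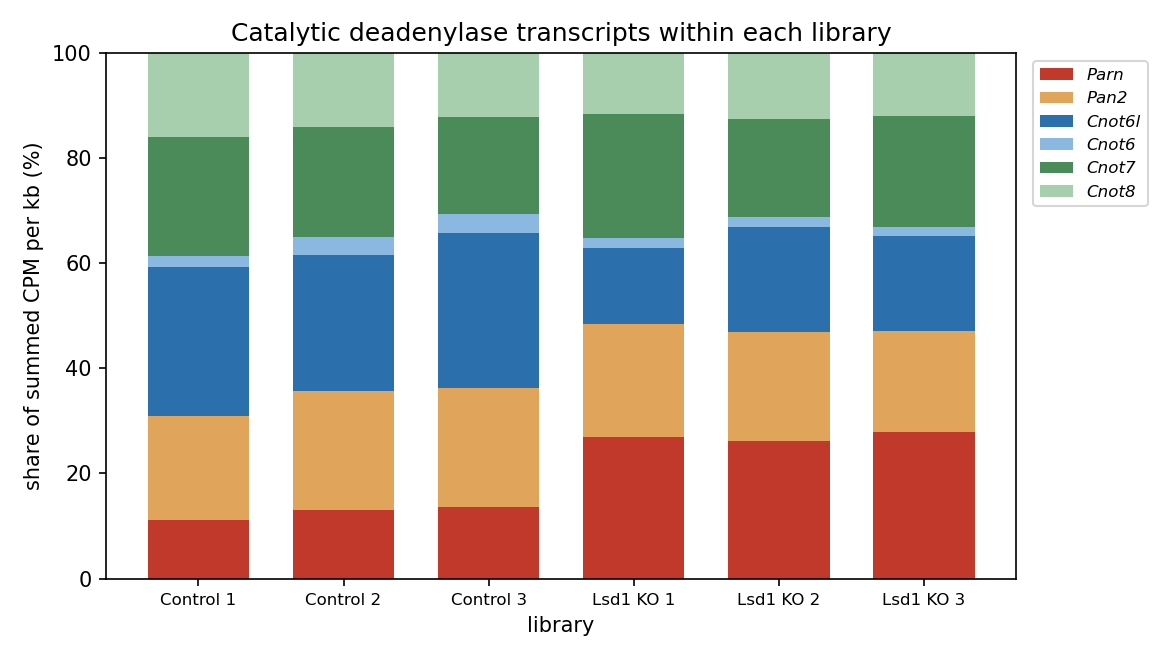
Share of each catalytic deadenylase transcript in the sum of the 6 (CPM per kb of exon, in percent), 1 bar per library. The Parn segment spans 11.1% to 13.7% in Control and 26.1% to 27.8% in Lsd1 KO, and the Cnot6l segment narrows from 25.9% or more to 19.8% or less.

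The rest of the pathway was read in 7 lists with 87 genes, of which 82 could be tested. Of these 82, 3 rose and 10 fell, beside 11.0% and 10.3% of all genes tested, and the median log2 fold change was -0.16. Among 6 other deadenylases and related nucleases the median log2 fold change was -0.01. Angel2, a relative of the CCR4 nucleases, rose from 137 ± 11.7 CPM in Control to 251 ± 7.54 in Lsd1 KO (log2 0.87 ± 0.16, edgeR adjusted p = 0.00318). Pde12, a mitochondrial deadenylase, fell from 24.9 ± 4.39 CPM in Control to 12.3 ± 1.12 in Lsd1 KO (log2 -1.02 ± 0.24), and lost the call without Control replicate 2 (adjusted p = 0.0512). Ccrn4l, the older symbol of the circadian gene Noct, was at 453 ± 146 against 408 ± 144 CPM and did not pass.

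The BTG/TOB proteins and RNA-binding recruiters of CCR4-NOT gave 4 falls and no rise among 18 genes tested, with a median log2 fold change of -0.42, beside 10.3% lower and a median of -0.01 over all genes. Tob1, an antiproliferative adaptor related to BTG4, fell from 97.0 ± 19.2 CPM in Control to 42.2 ± 5.36 in Lsd1 KO (log2 -1.20 ± 0.20, edgeR adjusted p = 0.00184). Nanos1, a partner of Pumilio proteins, fell from 110 ± 21.0 CPM in Control to 59.8 ± 13.8 in Lsd1 KO (log2 -0.88 ± 0.22, adjusted p = 0.0130). The other falls were Pum2 (log2 -0.65 ± 0.19) and the microRNA effector Tnrc6c (-0.63 ± 0.21). The number of falls was 1 without Lsd1 KO replicate 3 or Control replicate 2, 2 without Lsd1 KO replicate 1, and it reached 6 without Control replicate 1. Tob1 kept its call in all 6 of these fits, and Nanos1, Pum2 and Tnrc6c in 4 (not without Lsd1 KO replicate 3 or Control replicate 2), 3 and 1 (adjusted p up to 0.0586, 0.142 and 0.137). With the immune covariate, Pum2 and Tnrc6c also lost the call (adjusted p = 0.0863 and 0.0743), and Tnrc6c lost it with upper-quartile scaling, limma-voom and a filter at 10 CPM (0.0541, 0.0610 and 0.0507).

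Among 13 genes tested of poly(A) binding and poly(A) polymerases, 2 fell and none rose, and the median log2 fold change was -0.17. Over all genes tested, 10.3% were lower and 11.0% higher. Pabpn1l, an oocyte poly(A)-binding protein, fell from 28.0 ± 6.09 CPM in Control to 11.1 ± 2.80 in Lsd1 KO (log2 -1.33 ± 0.27, edgeR adjusted p = 0.00488), and Paip2, an inhibitor of cytoplasmic poly(A)-binding protein, from 445 ± 48.6 to 265 ± 17.6 CPM (log2 -0.75 ± 0.17). Paip2 lost the call without Lsd1 KO replicate 1 (adjusted p = 0.0575). In the exosome and its cofactors 2 of 15 fell and none rose, with a median log2 fold change of -0.20. Exosc2, a cap subunit of the exosome, fell from 88.3 ± 26.0 CPM in Control to 32.2 ± 3.02 in Lsd1 KO (log2 -1.46 ± 0.23, edgeR adjusted p = 0.00124), and Skiv2l, the helicase of the SKI complex, from 77.9 ± 14.7 to 41.4 ± 5.59 CPM (log2 -0.91 ± 0.20). Pabpn1l, Exosc2 and Skiv2l kept the call with each library left out.

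Decapping and 5′ to 3′ decay gave 2 rises and no fall among 19 genes, beside 11.0% higher and 10.3% lower over all genes. The median log2 fold change of this list was 0.01. Edc4, the scaffold of the decapping complex, rose from 155 ± 17.3 CPM in Control to 251 ± 27.0 in Lsd1 KO (log2 0.69 ± 0.17), and Dcps, the scavenger decapping enzyme, from 6.43 ± 1.57 to 13.3 ± 2.32 CPM (log2 1.05 ± 0.30). Neither kept the call without Lsd1 KO replicate 1 or Control replicate 1 (edgeR adjusted p up to 0.0643 and 0.104), and without Lsd1 KO replicate 3 or Control replicate 2 only Edc4 kept it. Dcps was also not called after the length and GC correction (adjusted p = 0.0799) or with the immune covariate (0.0705). Without Control replicate 3 this list held 4 falls beside the 2 rises. Of 5 genes of 3′ uridylation, with a median log2 fold change of -0.32, 1 fell and none rose. This was the transferase Tut1, from 24.3 ± 5.01 CPM in Control to 13.6 ± 1.78 in Lsd1 KO (log2 -0.83 ± 0.24, edgeR adjusted p = 0.0286). Its call was kept in 1 of the 6 fits that leave out a library.

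**Figure D5:**
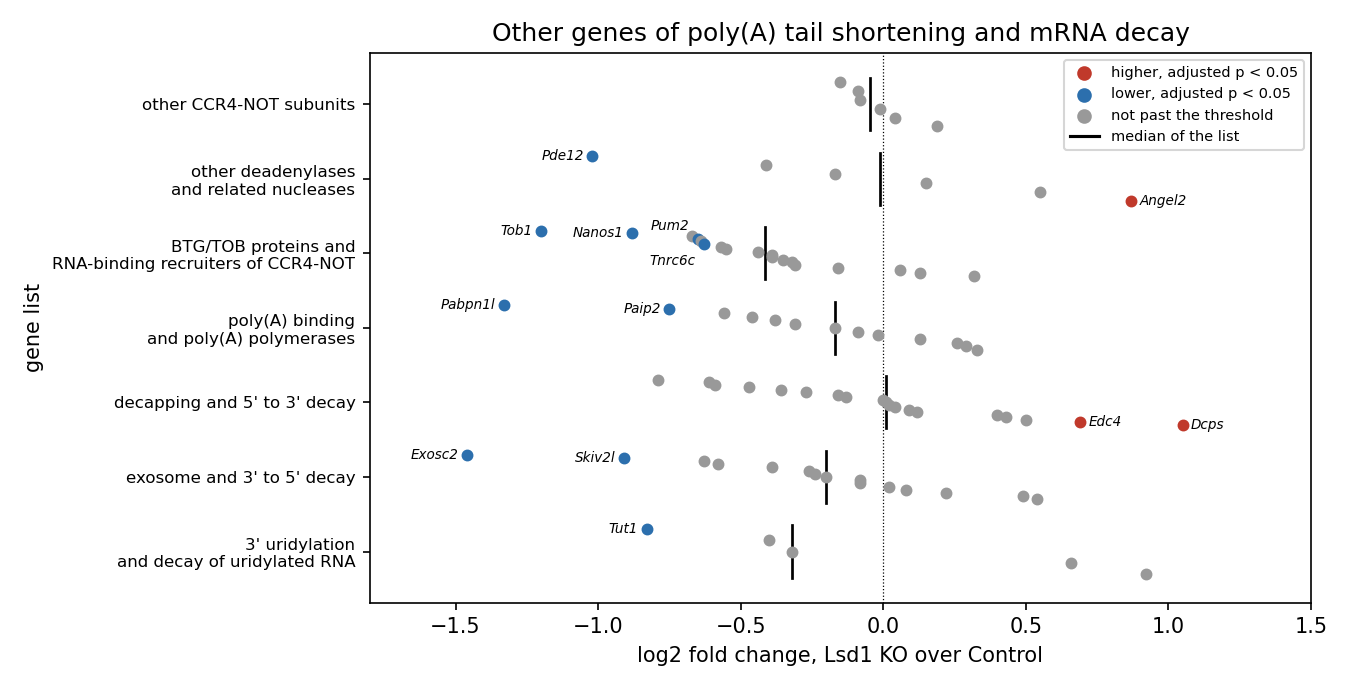
Log2 fold change of the 82 genes tested in 7 lists of tail shortening and mRNA decay, 1 point per gene, with the bar at the median of the list. The 3 rises and 10 falls are named, and the 6 other CCR4-NOT subunits all lie between -0.15 and 0.19.

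Genes whose log2 CPM followed Parn or Pan3 most closely over the 6 libraries were sought among 7537 genes with a mean of at least 10 CPM. For Parn these were Zfp110 (Pearson's r = 0.998), Fsd2 (0.997) and Hvcn1 (0.996), and their log2 fold changes were 0.75 ± 0.19, 2.37 ± 0.33 and 0.80 ± 0.19. For Pan3 they were Pcf11 (0.999), Xpo4 (0.997) and Zfp664 (0.996), with log2 fold changes of -0.46 ± 0.18, -0.91 ± 0.22 and -0.87 ± 0.19, of which Pcf11 did not pass (edgeR adjusted p = 0.0962). The points share the genotype difference and library depth, and the closest of 7537 genes over 6 libraries are high by selection.

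Sequence shared with other genes was examined for 1 transcript per member, against coding genes alone. No stretch of 50 bases in a member's coding transcript was shared with another coding gene, except in Cnot1, where 4.97% of stretches also occurred in Gm6158. The coding sequences of Cnot6 and Cnot6l are 73.7% identical over the 1651 aligned bases, and those of Cnot7 and Cnot8 71.6% over 857. On the opposite strand, Zdhhc2 shares 247 exon bases with Cnot7 and 4930513N10Rik 134 with Cnot1, and their counts did not exceed 47 and 34 in any library. How many reads of Cnot7 or Cnot1 such an overlap removed was not tested. The strand setting of the counting was not given in the sources used here.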

How the data were processed

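The authors deposited 1 file of raw read counts per gene symbol for each of 6 samples. Per the submitters' processing notes, mm9 was the build, and HTSeq 0.5.3p9, TopHat2 2.0.7 and CASAVA 1.8.2 were among the tools; options and gene annotation were not given in the sources used here. Per the labels' protocols, cDNA was amplified (NuGEN Ovation) before library construction, so counts are not independent molecules and tail lengths were not measured.

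Genes were kept by filterByExpr (minimum count 10; 12935 genes), scaled by TMM and tested with edgeR 4.0.16 (R 4.3.3), two-sided, Benjamini-Hochberg adjusted over all genes. Intervals are 95%. The scripts were tested on simulated data. There edgeR called 52% of 100 genes changed by a log2 of 1 and 93% of 100 changed by a log2 of 2. Of its calls, 5.23% were false, against 13.9% with the DESeq2 Wald test, which was among the alternatives. Replicate pairs differed by more than counting noise (chi-square per degree of freedom 19.8 to 43.6). The members and lists were chosen with earlier results of these data known. Named are all 10 members, up to 4 called genes per list, the 2 most abundant markers of other cells, and the 3 genes most like each called member. Marker lists of other cells were led per kb by Cyp19a1 and Inha (granulosa; Inha at 28.6 CPM in Lsd1 KO against 11.2 in Control), Hsd3b1 and Dcn (theca and stroma; 22.0 against 9.37 and 7.57 against 0.414), C1qb and Lyz2 (immune; 36.9 against 20.5 and 29.0 against 8.97) and Alas2 (red blood cells; 0.510 against 1.29). Sequences are from GENCODE release M1 transcripts, checked against NCBIM37; protein sequences were not used here. Alternatives were scaling, test, filter, a replicate block, length and GC correction, an immune covariate and leaving out each library.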

Additional observations from a re-analysis of the deposited data

How the results depend on the processing

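Parn kept its rise and Pan3 its fall in all 17 alternative fits, at log2 1.22 to 1.52 (adjusted p up to 0.00644) and -1.06 to -0.74 (up to 0.0394). Where calls also need a 2-fold change (log2 of 1), Pan3 is lost and 0 of the 10 genes are lower. None of the other 8 passed in any fit. Cnot8 changed sign with the length and GC correction (-0.07), with that correction and the replicate block (-0.08) and without Lsd1 KO replicate 2 (-0.02). The Cnot6l to Cnot6 ratio, -0.08, ran from -0.25 to 0.20 with 1 library left out, above 0 without Lsd1 KO replicate 1 (0.03) or Control replicate 1 (0.20).

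Over all genes, 1421 were higher and 1329 lower; an adjusted p under 0.01 gave 676 and 497, and the 2-fold limit gave 945 and 625. Leaving out 1 library gave 932 to 1466 higher and 638 to 1346 lower; 932 were higher without Control replicate 1, while 638 were lower without Lsd1 KO replicate 1, 727 without Lsd1 KO replicate 3, but 781 without Control replicate 2. Deviations of same-numbered libraries from their group means correlated little over the genes tested (r = -0.03, 0.11 and -0.02). Pairs with different numbers gave r from -0.10 to 0.13, the highest between Lsd1 KO replicate 3 and Control replicate 1. In immune marker sums, replicate 2 was the lowest of both genotypes. With the replicate number as a replicate block, 1270 genes were higher and 1098 lower. Falls among the recruiters of CCR4-NOT then went from 4 to 2, without Pum2 and Tnrc6c (edgeR adjusted p = 0.0551 and 0.0801). Counting noise is small at these depths, so the spread between libraries sets what could be resolved.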
